A study of Mus musculus with 8 samples.

Results

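Polyadenylation sites (PASs) that lie in an internal exon or in the first exon of a gene were selected by the exon type that the deposited PAS tables give them, without use of any read value. They made up 478 of the 21906 gene and PAS pairs in 3 tables, at 476 positions in 409 genes. Of the pairs, 415 were typed as internal exon and 63 as first exon. The table that compares NT with AS held 418 of them among 18858, that of RC4 held 432 among 18818, and that of RC8 held 405 among 19105. All 3 tables listed 370 of the pairs, and 71 pairs stood in 1 table only.

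The libraries were QuantSeq FWD libraries of total RNA from proliferating NIH3T3 cells, a mouse embryonic fibroblast line, with 1 library per condition. NT cells were not treated. AS cells were kept in 250 µM sodium arsenite, an oxidative and protein-damaging stress, for 1 h, and RC4 and RC8 cells were washed after that hour and left to recover without arsenite for 4 h or 8 h. Each library held 22441452 to 22996421 reads on genes that passed the authors' minimum of 50 reads. The fibroblast genes Col1a1, Col1a2, Col3a1, Fn1, Vim, Thy1 and S100a4 were all listed, and the epithelial genes Epcam, Cdh1, Krt8 and Krt18 were not. With 1 library per condition there is no spread between replicates, so the conditions themselves could not be tested. Comparisons and intervals below are between the reads of 2 libraries and cover counting error only.

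Messengers are cleaved and polyadenylated at a site that usually follows an AAUAAA or AUUAAA hexamer, and most genes do this in the last exon. Cleavage at a PAS in an internal or first exon can give a transcript that lacks part or all of the coding region. QuantSeq starts from an oligo(dT) primer, which can anneal to the poly(A) tail and also to A-rich stretches inside a transcript. FWD reads lie some way upstream of the PAS, so the authors' method, MAAPER, assigned each read to a PAS position from a PAS database. The method gives each PAS a fraction of the reads of its gene. Per the paper, the database holds only PASs mapped without oligo(dT) priming, so internal priming does not affect the PASs that MAAPER predicts.

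The first set of sequences shows the 5 sites with the most additional reads in RC4. Each window runs 5′ to 3′ on the transcribed strand of the mm9 genome, and the capital marks the listed PAS base.

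Hsp90aa1, exon 5 of 11, coding sequence, chr12:111932302-111932362, minus strand: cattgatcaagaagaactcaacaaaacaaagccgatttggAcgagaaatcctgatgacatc
Gm12346, noncoding exon 1 of 2, chr11:77107541-77107601, plus strand: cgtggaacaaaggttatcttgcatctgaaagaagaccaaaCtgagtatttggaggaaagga
Hsp90ab1, exon 6 of 11, coding sequence, chr17:45707291-45707351, minus strand: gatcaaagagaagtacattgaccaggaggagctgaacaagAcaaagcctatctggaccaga
Hsp90ab1, exon 6 of 11, coding sequence, chr17:45707428-45707488, minus strand: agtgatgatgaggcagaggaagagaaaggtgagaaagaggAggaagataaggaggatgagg
Hsp90ab1, exon 9 of 11, coding sequence, chr17:45705866-45705926, minus strand: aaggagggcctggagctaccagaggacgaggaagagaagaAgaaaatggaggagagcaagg

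None of these 5 windows holds AATAAA or ATTAAA, and none met the A tract rule used here (a run of 8 A from 15 nt before to 20 nt after the site, or a run of 6 A or 7 A within 10 nt in the 20 nt after it). The second set shows internal exon sites followed by A-rich sequence. The capitals mark runs of at least 4 A, and the PAS is the base 20 nt before the end of each window.

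Nmt1, exon 2 of 12, coding sequence, chr11:102904486-102904546, plus strand: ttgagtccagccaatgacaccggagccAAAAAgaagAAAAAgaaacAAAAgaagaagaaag
Chd3, exon 3 of 40, coding sequence, chr11:69177506-69177566, minus strand: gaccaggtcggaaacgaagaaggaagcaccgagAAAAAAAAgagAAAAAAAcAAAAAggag
Dnajc21, exon 5 of 12, coding sequence, chr15:10391035-10391095, minus strand: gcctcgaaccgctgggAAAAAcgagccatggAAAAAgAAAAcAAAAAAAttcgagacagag

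The third set shows sites listed on the last base of an exon, with the capital on the PAS base and the lower case after it belonging to the next intron.

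Cst3, exon 2 of 3, chr2:148698533-148698593, minus strand: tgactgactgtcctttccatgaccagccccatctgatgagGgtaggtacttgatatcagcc
Cir1, exon 3 of 10, chr2:73144892-73144952, minus strand: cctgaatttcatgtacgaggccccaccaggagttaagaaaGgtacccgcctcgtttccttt
Ruvbl2, exon 17 of 18, chr7:52677442-52677502, minus strand: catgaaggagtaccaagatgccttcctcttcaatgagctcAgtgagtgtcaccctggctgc

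Usmg5 is shown as an internal exon site with a canonical hexamer, in capitals, and with the most reads in RC4 among the sites whose fraction was called higher there.

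Usmg5, exon 2 of 4, coding sequence, chr19:47160640-47160700, minus strand: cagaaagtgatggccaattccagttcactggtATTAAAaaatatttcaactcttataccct

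The sequence and position of the internal and first exon sites differed from those of PASs in 3′-most exons. AATAAA or ATTAAA, read on the transcribed strand only, lay within 40 nt upstream of 45 of the 413 internal exon positions (10.9%, 95% Wilson interval 8.24 to 14.3) and 17 of the 63 first exon positions (26.98%, 17.6 to 39.0). The share was 53.0% at intronic positions and 52.8% at positions in 3′-most exons, and 3.36% of internal and first exon positions had a hexamer in the same window moved 200 nt farther upstream. An A tract stood at 17.9% of internal exon positions (14.5 to 21.9), 9.52% of first exon positions and 8.36% of positions in 3′-most exons, while the share was 27.7% at intronic positions and 46.4% at PASs of single exon genes. The median GC content of the sequence around the site was 45.9% for internal exons, 42.6% for first exons and 32.8% for 3′-most exons.

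Of the 476 positions, 412 lay in coding sequence of the GENCODE annotation of mm9, 21 in a 5′ UTR, 16 in a 3′ UTR and 26 in a noncoding exon. All but 1 lay in an annotated exon. The median distance to the end of that exon was 31 nt for internal exons, and over both types 76 positions were the last base of their exon. With the next exon spliced on, the 20 nt after an internal exon site held a mean of 7.36 A, against 6.56 A in the genomic sequence and 5.87 A in the messenger 200 nt farther upstream. A transcript end was annotated within 24 nt of 7.99% of internal exon positions, 14.3% of first exon positions and 39.2% of positions in 3′-most exons. The share of internal exon positions that lay in the last exon of some annotated transcript was 27.8%, so the label internal depends on the transcript that is taken. The 4 sites of Gas5, a noncoding RNA that hosts small nucleolar RNAs, are typed as first exon in the tables, yet they lay in exons 1, 3, 5 and 7 of annotated Gas5 transcripts.

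**Figure D1:**
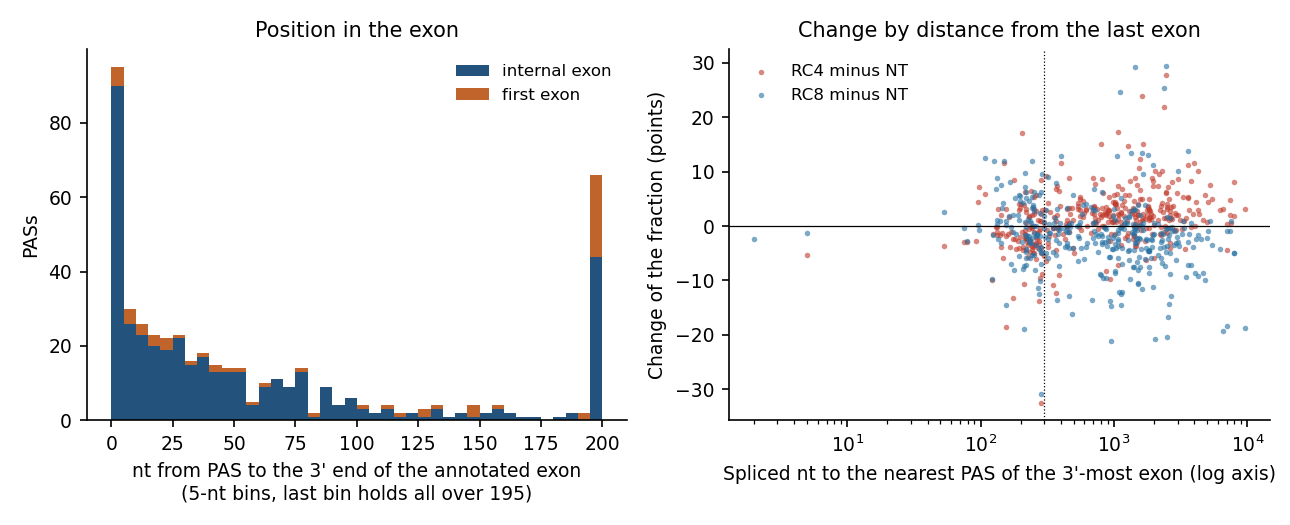
Left, number of PASs by distance from the PAS to the 3′ end of its annotated exon in nt, for internal exon and first exon PASs, with the highest bar in the first bin and all longer distances in the last. Right, change of the fraction in percentage points for RC4 and RC8 against NT by spliced distance to the nearest PAS of the 3′-most exon, 1 point per PAS, with a dotted line at 300 nt.

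The internal and first exon sites took 2.201% of all gene reads in NT and 2.32% in AS, against 3.12% in RC4 and 2.35% in RC8, so RC4 was the high library. NT is given here as scaled in the RC4 table, and its share was 2.18% in the AS table and 2.16% in the RC8 table, which list other sites. Against NT of the same table the share was higher by 0.145 percentage points in AS (95% Newcombe interval 0.136 to 0.154). The RC4 difference was 0.915 points (0.906 to 0.924), and the RC8 difference 0.188 points (0.179 to 0.197). For the RC4 library, the internal exon sites took 23865 of every 1000000 gene reads (reads scaled this way are given as RPM below) against 17575 in NT, and the first exon sites 7299 against 4439. PASs in introns took 62983 RPM in RC4 against 59895 in NT, and those in 3′-most exons 743720 against 766580. RPM values follow the total, and in RC4 the median over genes of the ratio to NT was 0.810 (log2 -0.30). In bulk RNA, fewer cells that express a gene and less RNA per cell cannot be told apart.

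**Figure D2:**
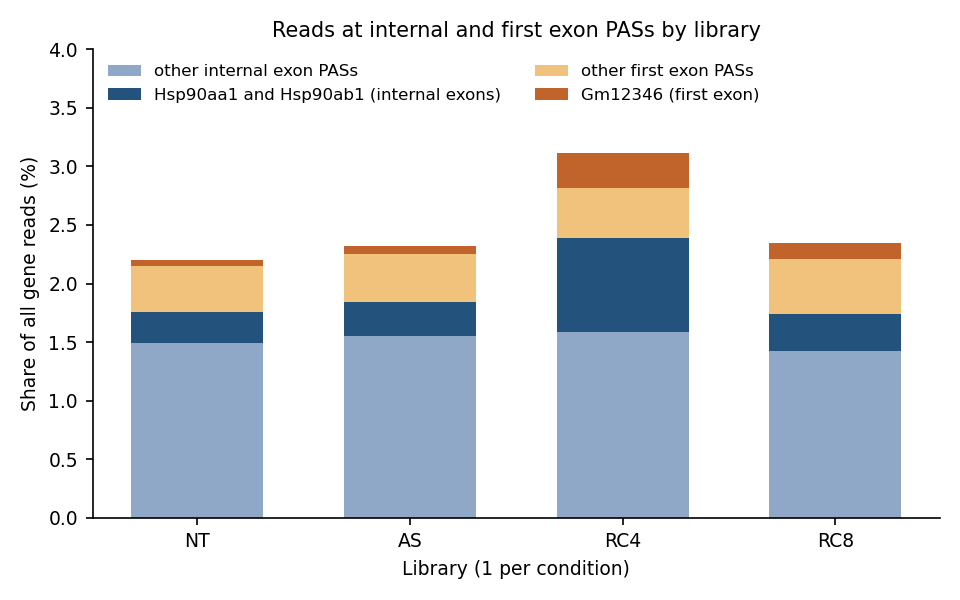
Share of all gene reads, in percent, at internal and first exon PASs in each of the 4 libraries (1 library per condition), stacked by group. The total is 2.201% in NT and 3.12% in RC4, and the sections for Hsp90aa1, Hsp90ab1 and Gm12346 hold most of that difference.

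The higher share in RC4 came from few genes. The 5 sites of Hsp90aa1, Hsp90ab1 and Gm12346 took 3179 RPM in NT and 3633 in AS, against 11016 in RC4 and 4543 in RC8. They made up 85.6% of the net difference between RC4 and NT, and the other 427 sites together took 18835 RPM in NT and 20148 in RC4. Of the 432 sites, 198 had more RPM in RC4 and 234 had fewer, and the 2 leading sites, those of Hsp90aa1 and Gm12346, held more than 50% of the summed increases of 11027 RPM, while 9 sites held 80%. Without the 10 sites with the largest increases, the net difference was 177 RPM in place of 9149.9. Split into the part from the reads of the gene and the part from the fraction of the site, 8119.6 RPM of the difference came with gene reads and 1030.3 with fractions. Each library was also scaled to its median read count over genes in place of the total, which is called scaled to the median gene below. This median, as a part of all reads, was 0.778 of that of NT in RC4, which is not the 0.810 given above. Scaled this way, the same 3 genes led, with 60.9% of the net difference, and 291 of the 432 sites were higher.

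Hsp90aa1 encodes the stress-inducible cytosolic HSP90 chaperone, which folds and stabilises client proteins. Its site in exon 5 took 671 RPM in NT and 886 in AS, against 3841 in RC4 and 1463 in RC8. The gene itself had 22072 reads in NT and 119649 in RC4, a ratio of 5.34 in RPM, and the fraction of them at the internal site was 68.5% in NT and 71.2% in AS, against 73.5% in RC4 and 64.1% in RC8. The site was thus the main listed site of Hsp90aa1 in every library, with the only other one, in the 3′-most exon, at 31.5% in NT and 26.5% in RC4. The RC4 fraction was 5.0 points above NT (4.34 to 5.66), and the difference in RPM followed the gene, with 3015 of 3170.2 RPM from gene reads.

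Gm12346 is a pseudogene, and its 1 listed site is in its first exon. It took 550 RPM in NT and 736 in AS, against 3001 in RC4 and 1400.2 in RC8, the same order of libraries as Hsp90aa1. The 300 nt before the site were identical to the Hsp90aa1 messenger in 300 of 300 positions, at a point 311 nt before the exon 5 site of Hsp90aa1 on that messenger. Within this stretch, reads from one can therefore not be told from reads of the other, and the mapping allowed reads with several matches. The 100 nt before the Hsp90aa1 site matched Gm12346 in 99 positions. The Gm12346 position is also listed as an intronic PAS of Ssh2, a cofilin phosphatase gene, with 13499 reads in NT and 71377 in RC4. Reads at this position thus stand in the tables under 2 genes.

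Hsp90ab1 encodes the constitutively expressed HSP90 and had 3 internal exon sites, each higher in RC4 than in NT, AS or RC8. The site at 45707311 in exon 6 took 1067 RPM in NT and 1020.4 in AS, against 2090.3 in RC4 and 777.5 in RC8. The other exon 6 site took 570 RPM in NT and 605 in AS, against 1281 in RC4 and 583 in RC8, and the exon 9 site took 321, 386, 802 and 320 in the same order. The gene's RPM in RC4 were 1.96 times those in NT, while the fraction of the first of these sites was 27.9% in both. In RC8 that fraction was 18%, against 28.5% for NT in the RC8 table, which was 10.5 points below NT (10.1 to 10.9 points) and the 1 call among the HSP90 sites.

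**Figure D3:**
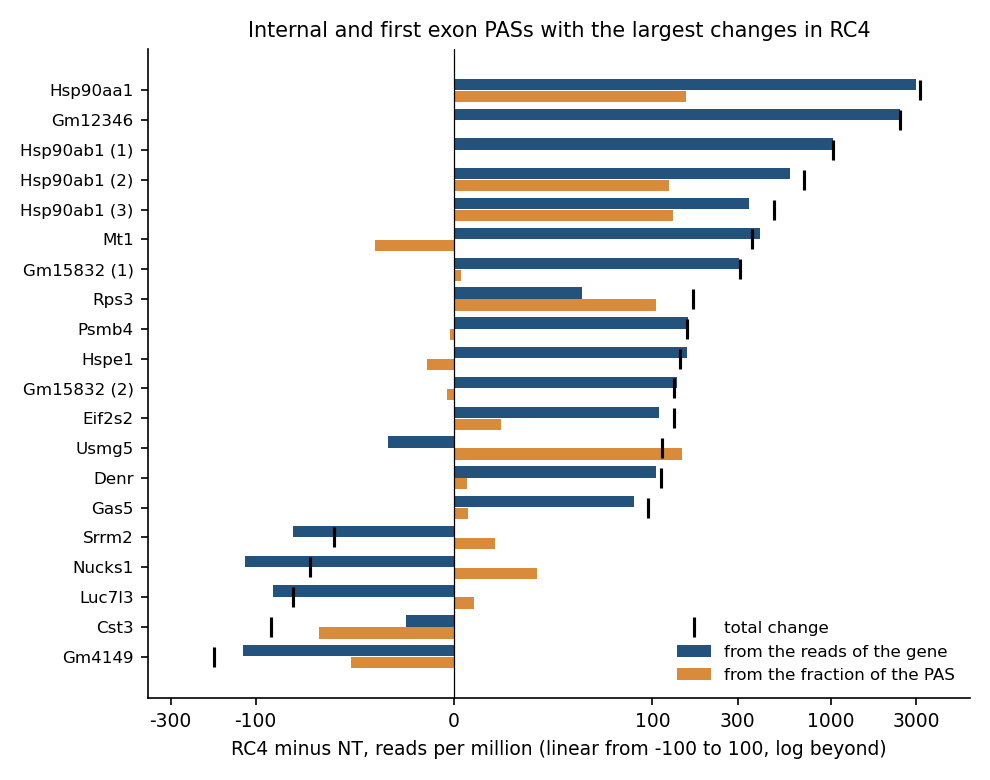
Difference between RC4 and NT in RPM (linear from -100 to 100 and logarithmic beyond) for the 15 sites with the largest increases and the 5 with the largest decreases. Blue bars give the part from the reads of the gene, orange bars the part from the fraction of the PAS and ticks the total, and numbers in brackets tell sites of a gene apart in order of size.

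Other sites with large increases in RC4 were those of Mt1, Gm15832, Rps3, Psmb4 and Hspe1. Mt1 encodes a metallothionein that binds heavy metals, and its exon 2 site took 58.4 RPM in NT and 125 in AS, against 418 in RC4 and 269 in RC8. Its fraction was 17.2% in NT and 14.7% in RC4, so the site was higher through the gene's reads, which were 8.38 times those of NT. Hspe1, the mitochondrial co-chaperonin, had a site in exon 2 with 106 RPM in NT and 101 in AS, against 248 in RC4 and 168 in RC8, and a fraction of 29.1% in NT and 27% in RC4. Psmb4, a subunit of the proteasome core, had 426, 508, 581 and 724 RPM at its exon 6 site in NT, AS, RC4 and RC8, the highest level being in RC8, although the RC8 table gives NT only 378 RPM. The site of Rps3 in exon 6, a gene for a protein of the small ribosomal subunit, took 944 RPM in NT and 1114 in RC4, and here 105 of the 170 RPM came with the fraction, which was 53.6% in NT and 59.4% in RC4.

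Usmg5, which encodes a small subunit of ATP synthase, had a site whose increase also came with its fraction. The site took 95.1 RPM in NT and 208 in RC4, and the fraction was 10.1% in NT and 27.2% in RC4 (difference 17.1 points, 16.3 to 17.9), while the RPM of the gene in RC4 were 0.812 of those in NT. The AS and RC8 tables do not list this site and give all NT reads of Usmg5 to the last exon, so the site has a value in 1 comparison only. The 35 sites listed only in the RC4 table took 405 RPM in NT and 588 in RC4, and a site can enter a table through the library in which it is high.

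The sites with the largest decreases in RC4 were those of Gm4149, Cst3, Luc7l3, Nucks1 and Srrm2. Gm4149 is a pseudogene whose 100 nt before the site match Rpl37a, a protein of the large ribosomal subunit, in 99 positions, and it held the site with the most reads in NT, 1598 RPM, with 1721 in AS, 1428 in RC4 and 2128 in RC8. It lay below NT in RC4 when scaled to the total and above NT when scaled to the median gene (ratio 1.15). Luc7l3 and Srrm2, both splicing factors, and Nucks1, a nuclear DNA-binding protein, had fewer reads in RC4 while the fraction at the internal site was higher than in NT by 6.1, 8.1 and 8.2 points. Cst3, which encodes the secreted protease inhibitor cystatin C, differed in its fraction, at 31.9% in NT and 25.7% in AS, against 18.2% in RC4 and 19.5% in RC8.

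In AS and RC8 the net differences in RPM were smaller than in RC4, and the increases were spread over more sites. In AS it took 9 sites to hold 50% of the summed increases, and in RC8 it took 4. The decreases summed to -1028.1 RPM over 206 sites in AS, -1877.3 RPM over 234 in RC4 and -2970.1 RPM over 257 in RC8, and so were largest in RC8. The leading sites after 1 h of arsenite were again those of Hsp90aa1 and Gm12346, followed by Rack1, a scaffold protein of the small ribosomal subunit, whose site took 796 RPM in NT and 947 in AS. Brd2, a bromodomain protein that binds acetylated histones, came next with 443 RPM in NT and 578 in AS, while its fraction was 21.2% and 21.1%. Nucks1 had the largest decrease in AS, from 283 RPM to 212.

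After 8 h of recovery, Gm12346 and Hsp90aa1 were joined by Gm4149, Psmb4, Rack1 and Rps14. The site of Rps14, a protein of the small ribosomal subunit, took 501 RPM in NT and 772 in RC8, and its fraction was 47.0% and 54.6%. The largest decrease in RC8 was at the Hsp90ab1 site at 45707311, from 1088 to 778 RPM, where the part from gene reads was 117 RPM and the part from the fraction -427 RPM. Rpl23, a protein of the large ribosomal subunit, had 364 RPM in NT and 256 in RC8 at its site. The levels of Hsp90ab1 and Rpl23 at these sites thus lay below NT.

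For first exon sites the RC4 difference lay mainly at Gm12346, whose position is also listed for another gene. Without Gm12346, the first exon sites took 3889 RPM in NT and 4298 in RC4. The 13 sites at positions listed for another gene took 1668 RPM in NT and 4604.1 in RC4, with 7 higher and 6 lower. The 46 at positions listed for 1 gene took 2771 RPM in NT and 2695 in RC4. Besides Gm12346, the sites of Gm15832 belonged to the first kind, with 244 RPM in NT and 208 in AS, against 687 in RC4 and 540 in RC8. They coincide with sites in the 3′ UTR of Rnf149, a RING finger ubiquitin ligase gene, whose RPM were 2.85 times those of NT in RC4. Gm17066 likewise shares a site with Rbm26, and it took 89.5 RPM in NT and 38.7 in RC4. The first exon site of Ttll3 is listed for Ttll3 alone but lies in an annotated 3′ UTR of Arpc4, with 143 RPM in NT and 166 in RC4. The 4 sites of Gas5 took 892 RPM in NT and 1106 in AS, against 1098 in RC4 and 869 in RC8, and 3 of those positions are also listed for another gene, 1 of them for the small nucleolar RNA gene Snord78. Of the 478 sites, 21 had 100 nt of upstream sequence that matched a coding transcript of another gene in at least 95 positions, among them Gm10110 with Pabpc4 and Gm6467 with Psmb3.

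A change of the fraction was called where it was at least 10 percentage points and its 95% Newcombe interval over the reads of the gene left out 0, among genes with more than 1 listed PAS. In AS, 6 of 402 internal and first exon sites were called up, beside 5.03% of all PASs tested, and 6 were called down, beside 5.1%. In RC4, 19 of 419 were called up (4.53%), beside 9.64% of all PASs, and 9 were called down (2.15%), beside 10.1%. In RC8, 19 of 389 were called up (4.88%), beside 8.93%, and 29 were called down (7.46%), beside 9.14%. In each comparison the share called at this threshold was below that of all PASs tested. With a threshold of 5 points the share called down in RC8 was 21.9%, beside 20.1% of all PASs. In RC4 all calls were of internal exon sites (5.18% of 367 up and 2.45% down), and the 52 first exon sites tested had none. In AS, 2 of 50 first exon sites were called up (4.0%) and 1 down (2.0%), beside 1.14% and 1.42% of internal exon sites. In RC8, 2 of 50 were called up (4.0%) and 3 down (6.0%), beside 5.01% and 7.67%.

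**Figure D4:**
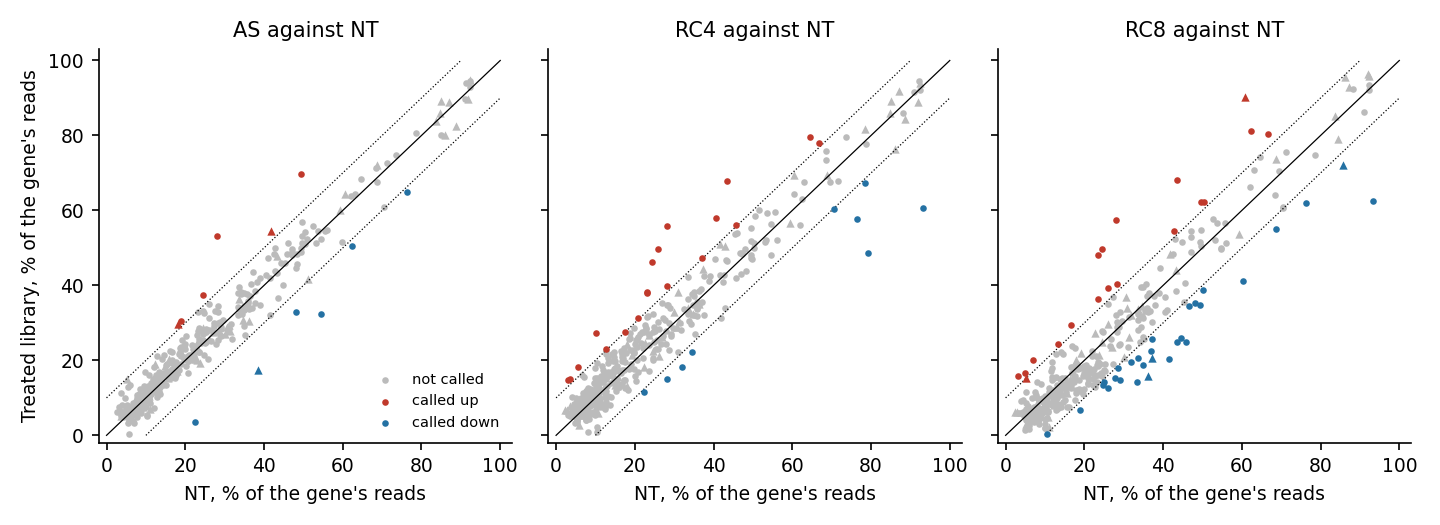
Fraction of the gene's reads at each internal exon PAS (circles) and first exon PAS (triangles), in percent, in NT (x axis) and in AS, RC4 or RC8 (y axis), for genes with more than 1 PAS. Red and blue mark calls up and down, the solid line equal fractions and the dotted lines a difference of 10 points, with 19 calls up and 9 down in RC4 and 19 up and 29 down in RC8.

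Over all tested internal exon sites, called or not, more fractions lay on 1 side of NT than on the other. In RC4 they were higher at 238 of 367 sites and lower at 125, with a median difference of 1.66 points, beside 0.1 points over all 14080 PASs tested. In RC8 they were lower at 230 of 339 sites, with a median of -1.9 points beside 0.0 over all, and in AS higher at 221 of 352 with a median of 0.9 points. Intronic PASs had a median of 1.6 points in RC4, with 950 of 1587 higher, and medians of 0.545 points in AS and -0.5 points in RC8. First exon sites were split evenly in RC4, with 26 higher and 25 lower. The 3 comparisons share the NT library. The fractions of a gene add up to its whole, so changes over all its PASs cancel. The median over all PASs thus lies near 0.0 largely by construction and is no independent baseline.

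The direction in RC4 went with the distance to the last exon. Among sites at least 300 nt of spliced sequence from the nearest PAS of the 3′-most exon, 207 of 275 had a higher fraction in RC4 and 63 a lower one, with a median of 2.2 points. Among those closer than 300 nt, 36 of 110 were higher and 74 lower, with a median of -1.65 points. In RC8 the more distant sites were lower at 190 of 258, and the closer ones at 53 of 102. Sites with an A tract had a higher fraction in RC4 at 59 of 75 and a lower one in RC8 at 56 of 73, while sites without one were higher in RC4 at 205 of 344 and lower in RC8 at 199 of 316. Whether priming at A-rich sequence has a part in these differences was not tested. Reads lie some way upstream of their PAS, so below 300 nt the reads of both sites can overlap. How well reads were assigned between such close sites was not tested either.

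The largest RC4 increase among genes with at least 200 reads in both libraries was that of Mphosph10, a component of the U3 small nucleolar ribonucleoprotein. Its exon 2 site held 25.9% of the reads in NT and 35.1% in AS, against 49.8% in RC4 and 39.4% in RC8, on 386 reads of the gene in NT and 234 in RC4 (RC4 difference 23.9 points, 16.1 to 31.5). The fraction of Nmt1, which encodes an N-myristoyltransferase, was 64.6% in NT and 68.4% in AS, against 79.6% in RC4 and 74.2% in RC8 on 4388 to 5221 reads. The RC4 difference of Nmt1 was 15 points (13.2 to 16.8), and its distal site in the 3′-most exon went from 25.8% in NT to 11.0% in RC4. Hmg20b, a chromatin protein, and Dnajc21, a J-domain protein of ribosome biogenesis, had RC4 differences of 15 and 14.8 points. Their fractions in RC8 were below NT, at 14.2% and 18.7% against 23.2% in NT for both, without a call. The interval of the RC8 difference of Dnajc21 included 0 (-4.5 points, -9.18 to 0.248).

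**Figure D5:**
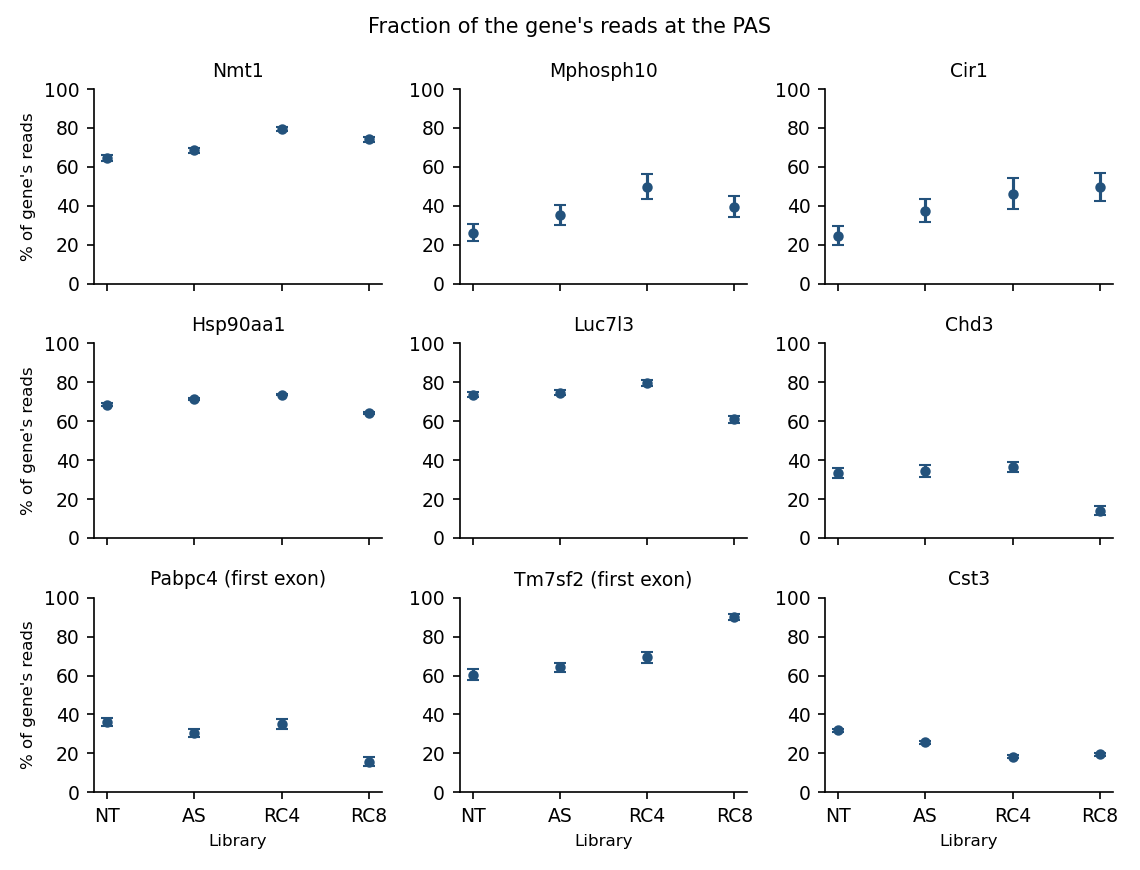
Fraction of the gene's reads at 1 internal or first exon PAS of 9 genes in the 4 libraries, in percent, with 95% Wilson intervals of counting error. Nmt1 and Mphosph10 are highest in RC4, Cir1 and Tm7sf2 are highest in RC8, and Chd3 and Pabpc4 are lowest in RC8.

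Several sites were called in all 3 comparisons. Taf5, a subunit of the general transcription factor TFIID, had an exon 2 site that was above NT by 25 points in AS, then by 27.8 in RC4 and 29.4 in RC8, on 116 to 259 reads of the gene. The site of Cir1, a corepressor of transcription, was 13.0, 21.9 and 25.3 points above NT in AS, RC4 and RC8. Ruvbl2, an ATPase of chromatin remodelling complexes, was below NT by 11.6, 18.6 and 14.5 points. Pcnx4 was called up in each, but its NT fraction was 49.4% in the AS table and 66.7% in the other tables.

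Among genes with at least 200 reads in both libraries, the largest decreases of RC4 were those of Brip1os, Cst3, Ipo13, Ndufa12 and Pvt1. Ipo13, a nuclear transport receptor, went from 28.2% in NT to 14.9% in RC4, and Ndufa12, a subunit of respiratory complex I, from 34.4% to 22.1%. For the noncoding RNAs Brip1os and Pvt1 the NT value itself depended on the table. The NT fraction of Brip1os was 79.2% in the RC4 table and 52.4% and 52.6% in the AS and RC8 tables, which list 2 internal exon sites of this gene where the RC4 table lists 1. Over the 370 sites listed in all 3 tables, the 3 estimates of the NT fraction lay within 1 point of each other at 334 sites (90.3%), and they spread over more than 10 points at 7.

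In RC8, Tm7sf2, a sterol reductase of cholesterol synthesis, had the largest increase among genes with at least 200 reads. Its first exon site held 60.5% of the reads in NT (60.9% in the RC8 table) and 64.3% in AS, against 69.4% in RC4 and 90.2% in RC8 (RC8 difference 29.3 points, 26.2 to 32.3). Pabpc4, a cytoplasmic poly(A)-binding protein, had a first exon site at 36.2% in NT and 30.4% in AS, against 35.0% in RC4 and 15.8% in RC8. The exon 3 site of Chd3, a subunit of the NuRD remodelling complex, was at 33.4%, 34.3%, 36.5% and 14.1% in NT, AS, RC4 and RC8, so NT, AS and RC4 lay together and RC8 was low. Naa16, an auxiliary subunit of an N-terminal acetyltransferase, was at 41.6% in NT and 20.4% in RC8, and Map1b, a microtubule-associated protein, at 43.6% and 24.8%. Naa16, Map1b and Chd3 all have an A tract at the site. Tm9sf1 and Suv39h2, a histone methyltransferase, were listed in the RC8 table only, at 23.4% in NT and 48.0% in RC8 for the former and 6.83% and 20.2% for the latter. Prl2c5, a prolactin family gene, had the largest decrease in RC8, by 30.9 points, and its sequence is near-identical to Prl2c2, so its reads are uncertain.

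In AS, among genes with at least 200 reads, the increases after Pcnx4 were 13.0 points for Cir1, 12.9 for Gm10110, 11.7 for Ccdc88a and 11.5 for the first exon site of Rbbp6, a component of the cleavage machinery. The largest decrease was that of Rnaseh2b, a subunit of RNase H2, from 22.4% in NT to 3.66% in AS, followed by Prrc2c and Ruvbl2. Rbbp6 stood at 18.1% in NT, 29.6% in AS and 18.2% in RC8, and a neighbouring position was listed in the RC4 table in its place. Just inside the rule in RC4 stood Rnaseh2c at -10 points, and just outside Lmf1 at -10.7 points with an interval that reached 0.

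By gene list, the 5 sites of heat shock chaperones (3 of 18 listed genes) took 2735 RPM in NT and 8262 in RC4, all 5 being higher, with 1 call, down, in RC8. The NRF2 and metal response list had 1 site among 19 listed genes, that of Mt1. Of the 12 sites of 7 translation factor genes each comparison held 11, and these took 660 RPM in NT and 661 in AS, against 789 in RC4 and 436 in RC8, and the fraction was lower than in NT at 9 of 11 sites in RC8. The site of Eif2s2, the beta subunit of initiation factor 2, took 110.5 RPM in NT and 243 in RC4, and Eif5b was called down in RC8. The 15 sites of cytosolic ribosomal protein genes took 4997 RPM in NT and 5575 in AS, against 5301 in RC4 and 5631 in RC8. The 10 proteasome sites took 794 RPM in NT, 1027 in RC4 and, for 9 sites, 1183 in RC8, with no call.

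The 6 sites of 4 cleavage and polyadenylation genes had 2 calls up, Rbbp6 in AS and Papola in RC8. Papola, the nuclear poly(A) polymerase, had an exon 9 site at 13.2% in NT and 12.9% in AS, against 20.5% in RC4 and 24.4% in RC8. Of 21 sites in respiratory chain and ATP synthase genes, 16 of the 19 in the RC4 table were lower in RC4 when scaled to the total, but 12 of those 19 were higher when scaled to the median gene. The 6 sites of 5 aminoacyl-tRNA synthetase genes had no call, and the 5 listed in the RC4 table took 191 RPM in NT and 289 in RC4. The 5 sites of the actin cytoskeleton list had no call either. In each comparison and direction 1.49% to 7.46% of internal and first exon sites were called, beside 5.03% to 10.1% of all PASs. Lists as small as these and the proteasome list can therefore have no call. The lists of extracellular matrix and integrins, immediate early genes and the integrated stress response held no internal or first exon site. Of their genes 26, 28 and 18 were listed. Over the series 409 of 10690 genes had such a site, so lists of this size can hold none.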

How the data were processed

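QuantSeq FWD libraries of NT, AS, RC4 and RC8 NIH3T3 cells were analysed, 1 per condition. The REV libraries were not analysed here. Per the labels and the methods, the authors trimmed reads, mapped them to mm9 with STAR 2.5.2a, allowing reads with several matches, and ran MAAPER on NT with each other library. How reads with several matches were counted is not given in the sources used here. The deposited gene tables hold counts, whole reads per gene in 2 columns per condition, which were added and taken as parts of 1 library, since the sources used here do not say what sets the columns apart. The deposited PAS tables give each PAS a fraction, its part of all reads of the gene, for both libraries. Columns with the authors' own comparisons (P values, RED and RLD scores) were not used.

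Reads of a PAS are its fraction times the gene's count, and RPM divides by all gene reads. The difference was split with mean fractions and mean gene levels. A call needs 10 points and a 95% Newcombe interval without 0. Intervals cover counting error only, since each condition has 1 library. The sources used here describe no molecular identifiers, so the intervals do not account for repeated reads of 1 molecule. The call rule was tested on simulated data. Positions were read against GENCODE vM1 and NCBIM37 (the mm9 assembly) with pysam 0.24.0 and blastn 2.17.0. Sites, gene lists and the 300 nt split were chosen with earlier results of these data known, and the lists of ribosomal, respiratory, proteasome and aminoacyl-tRNA synthetase genes were taken by symbol pattern. The sites named are those with the largest RPM or fraction changes, the most NT reads, and those of genes the study names. Rack1, Brd2, Rps14, Rpl23 and Map1b were chosen after their values were seen, as were the symbol patterns. Alternatives changed the sites kept, the read column, the threshold and the scaling. The result of 1 site is not reported here.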

Additional observations from a re-analysis of the deposited data

Results flagged for a closer look

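The summed fraction part of internal exon sites lay above NT in AS and RC4 and below NT in RC8, and the difference between times was not tested. The part of their level that comes with the fraction summed to 502.6 RPM above NT in AS, 1039.1 RPM above NT in RC4 and fell by 1197.5 RPM in RC8. Without Hsp90aa1 and Hsp90ab1 it was 628.78 RPM in RC4 and -625.85 RPM in RC8. Of the 69 sites called in any comparison, 11 were called in 2 comparisons and 4 in 3. Those of Ino80 and 2500002B13Rik were called in opposite directions in different comparisons. The share of all PASs called in opposite directions is not given here. The fraction at the site of Ino80, a chromatin remodelling ATPase, was 10.2 points higher in RC4 (3.42 to 16.8). It dropped by 20.8 points in RC8 (-28.2 to -12.7). The site of 2500002B13Rik dropped by 11.8 points in AS (-22.1 to -1.09) and was 18.9 points higher in RC8 (7.31 to 29.0). Neither gene had at least 200 reads in both libraries of the RC8 comparison. With 1 library per condition no group was large enough to look for a sample far from the others.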

How the results depend on the processing

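No paired analysis was possible because each condition has 1 library. The higher share of reads kept its direction in AS and RC4 under every alternative run. In RC8 it turned to -0.118 points without the 10 members with the largest changes, and without those the differences were 0.0104 points for AS and 0.0489 for RC4. Without the member with the largest change they were 0.123, 0.598 and 0.103 points for AS, RC4 and RC8. Without PASs listed for more than 1 gene they were 0.118, 0.625 and 0.0811 points. Chosen after seeing the data, leaving out Hsp90aa1, Hsp90ab1 and Gm12346 gave 0.0988, 0.131 and 0.0509 points, and leaving out PASs with a near-identical coding transcript elsewhere gave 0.111, 0.694 and 0.0530. Without PASs at an A tract RC4 was at 0.901 and RC8 at 0.235 points, and with only positions listed in all 3 tables RC4 was at 0.896. Either read column alone, genes with at least 200 reads and genes listed in all 3 tables gave differences inside the main interval.

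At 5 points the calls were 32 up and 17 down (AS), 71 and 25 (RC4), 45 and 85 (RC8). In AS this was 7.96% up and 4.23% down, beside 13.5% of all PASs in each direction. In RC4 it was 16.9% up beside 20.9% and 5.97% down beside 20.2%. In RC8 it was 11.6% up beside 20.3% and 21.9% down beside 20.1%. At 20 points they were 2 and 2, 4 and 2, and 5 and 4. The shares in AS were 0.498% in each direction, beside 0.679% of all PASs. For RC4 they were 0.955% up and 0.477% down, beside 2.26% and 2.55%. For RC8 they were 1.29% and 1.03%, beside 1.60% and 1.66%. With at least 200 reads of the gene, 3 of 390 sites were called down in AS (0.769%), beside 4.39% of all PASs. The Fisher exact rule, the mean NT fraction and the A tract filter left every other count within 1.5 times. Gene reads gave 88.7% of the RC4 difference, 91.8% with positions in all 3 tables, 93.4% when scaled to the median gene, where 4 PASs in place of 2 held 50% of the increases, and 52.8% without Hsp90aa1, Hsp90ab1 and Gm12346. The cause of these shifts was not tested. Reads per gene limit the fractions of rare genes, where intervals of a difference reach over 10 points in width.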
